A study of Mus musculus with 12 samples.

Results

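Neutrophil granule genes were followed in bone marrow progenitors that lacked either caspase-9 or the pair Bak and Bax. The set consists of 10 genes: Mpo, Elane (named Ela2 in the files), Prtn3, Ctsg, Fcnb, Ltf, Lcn2, Ngp, Camp and Cebpe. Probes were taken by gene symbol, which gave 18 probes of the 45281 on the array. All 18 member probes were above background on at least 3 of the 12 arrays and were tested among 18867 such probes, which name 11772 gene symbols.

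Neutrophils make their granules in waves as they mature. Primary granules are filled at the promyelocyte stage with myeloperoxidase (Mpo), which makes hypochlorous acid, and with the serine proteases neutrophil elastase (Elane), proteinase 3 (Prtn3) and cathepsin G (Ctsg). Secondary granules follow in myelocytes and metamyelocytes, with the iron-binding lactoferrin (Ltf), the siderophore-binding lipocalin 2 (Lcn2), the cystatin-related neutrophilic granule protein (Ngp) and the antimicrobial cathelicidin (Camp). Fcnb encodes ficolin B, a sugar-binding lectin of myeloid cells, and Cebpe encodes C/EBP epsilon, a transcription factor that mice need for the expression of secondary granule genes. Progenitors of the neutrophil line already transcribe granule genes, so these transcripts can be read in bone marrow progenitors.

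The cells came from C57BL/6 bone marrow chimeras, in which blood formation had been rebuilt from transplanted fetal liver cells of embryonic day 13.5. The Lineage-Kit+CD45.2+ fraction was flow sorted from femur and tibia 12 to 16 weeks after the transplant, so every group, controls included, consists of transplanted cells. There were 4 groups of 3 arrays: Casp9 KO (knockout of caspase-9, the initiator protease of mitochondrial apoptosis) and its wild-type control, WT experiment 1, then Bak/Bax DKO (double knockout of the proteins that open the outer mitochondrial membrane) and its control, WT experiment 2. The labels do not give the recipients' genotype, the alleles or whether samples were pooled, and they call the samples independent without saying that each is a separate animal. The p-values therefore weigh each difference only against the spread among samples of a group, which may be technical. Casp9 KO and WT experiment 1 shared 1 Illumina beadchip and the other groups shared another. The study's title names cytokine signals under the control of caspase-9.

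Values are the deposited normalized log2 values unless stated. Differences are log2 differences tested with limma over all 12 arrays, and a probe was called where its Benjamini-Hochberg adjusted p over the 18867 probes was under 0.05. The targeted genes followed the labels: Casp9 was 5.36 ± 0.12 in Casp9 KO and 8.62 ± 0.52 in WT experiment 1, and in Bak/Bax DKO Bak1 was 4.62 ± 0.12 against 6.53 ± 0.24 in WT experiment 2 and Bax 7.88 ± 0.15 against 9.70 ± 0.33 (SD, n = 3 each). The sources used here do not say whether these probes lie inside the deletions. Bak/Bax DKO replicate 2 stood apart. Of 3096 bright probes (mean above 10 in WT experiment 2), 832 (26.9%) lay more than 3 log2 units below the WT experiment 2 mean on that array, against at most 2 (0.0646%) on any other. The Pearson correlation of this array with each of the others was 0.856 to 0.869. Mean bead intensity was 234.5 on this array and 321.5 to 522.0 on the other 11, while the share of probes above background was 35.7% to 39.7% over the 12. Results are therefore given with 12 arrays and with 11, leaving that array out. The labelled cell type held its markers: Kit was at 11.68 to 12.96 and Cd34 at 8.44 to 9.30 on the 12 arrays, and neither Flt3 nor Hlf was above background on more than 1.

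Sequences upstream of Fcnb and the secondary granule genes, whose values differed most between groups, are shown here beside those of a pair of primary granule genes. RefSeq promoters (build GRCm38.p6) were found for 9 of the 10 genes, all but Cebpe. Each sequence below is the 250 bases before the gene's start, 5′ to 3′ on the gene's strand. In the first 5, capitals mark the C/EBP-type core TTGCNNAA on either strand. Fcnb lies at chr2:28084879-28085128 (minus strand), Ltf at chr9:111019042-111019291 (plus), Lcn2 at chr2:32387740-32387989 (minus), Ngp at chr9:110419558-110419807 (plus) and Camp at chr9:109849457-109849706 (minus).
Fcnb: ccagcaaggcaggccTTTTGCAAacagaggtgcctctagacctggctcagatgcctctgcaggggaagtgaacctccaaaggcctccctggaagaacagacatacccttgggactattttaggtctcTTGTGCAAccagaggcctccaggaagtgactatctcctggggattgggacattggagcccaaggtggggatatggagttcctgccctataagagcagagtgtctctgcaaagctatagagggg
Ltf: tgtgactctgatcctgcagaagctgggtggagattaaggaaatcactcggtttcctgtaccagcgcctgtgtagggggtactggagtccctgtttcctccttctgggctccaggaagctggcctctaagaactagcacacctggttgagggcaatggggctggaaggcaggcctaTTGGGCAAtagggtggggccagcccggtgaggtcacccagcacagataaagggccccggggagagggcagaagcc
Lcn2: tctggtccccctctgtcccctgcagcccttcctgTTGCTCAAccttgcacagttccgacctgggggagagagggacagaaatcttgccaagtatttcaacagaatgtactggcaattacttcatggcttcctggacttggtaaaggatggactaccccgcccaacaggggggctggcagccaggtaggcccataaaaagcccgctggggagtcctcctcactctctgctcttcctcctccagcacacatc
Ngp: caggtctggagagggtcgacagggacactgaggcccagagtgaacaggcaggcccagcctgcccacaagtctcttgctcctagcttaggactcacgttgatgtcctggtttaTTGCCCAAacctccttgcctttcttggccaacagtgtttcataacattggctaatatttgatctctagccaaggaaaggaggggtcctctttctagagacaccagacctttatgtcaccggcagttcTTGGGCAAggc
Camp: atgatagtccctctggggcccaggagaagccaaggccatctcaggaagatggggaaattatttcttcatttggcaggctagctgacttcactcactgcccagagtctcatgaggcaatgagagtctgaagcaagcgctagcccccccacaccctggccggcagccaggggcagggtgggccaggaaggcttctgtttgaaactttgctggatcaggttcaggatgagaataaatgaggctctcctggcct
In the next pair, Mpo at chr11:87793534-87793783 (plus) and Elane at chr10:79886062-79886311 (plus), capitals mark GAGGAAG, a purine-rich motif of the PU.1 type.
Mpo: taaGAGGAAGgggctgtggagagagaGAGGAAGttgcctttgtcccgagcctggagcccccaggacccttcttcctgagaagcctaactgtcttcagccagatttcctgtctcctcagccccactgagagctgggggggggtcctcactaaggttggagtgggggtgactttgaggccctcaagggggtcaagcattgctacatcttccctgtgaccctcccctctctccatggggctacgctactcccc
Elane: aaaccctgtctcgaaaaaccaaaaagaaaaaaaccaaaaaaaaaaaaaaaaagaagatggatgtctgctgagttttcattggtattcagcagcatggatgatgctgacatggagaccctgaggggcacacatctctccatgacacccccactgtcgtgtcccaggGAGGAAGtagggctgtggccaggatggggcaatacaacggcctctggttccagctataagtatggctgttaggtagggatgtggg

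TTGCNNAA was present in the windows of Fcnb (at 2 positions), Ngp (2), Ltf (1) and Lcn2 (1), not in that of Camp, and in 0 of the 4 primary granule windows, against 9.56% of the 32851 promoters. GAGGAAG was present in all 4 primary granule windows and in Lcn2, against 10.6% of promoters. In all, 8 spellings were searched on both strands. TTNNGNAA (36.8% of promoters) was in Fcnb, Ltf, Lcn2 and Ngp, and its longer form TTNNGNAAT (10.2%) in Ltf and Ngp. Any TTGCNNAA match is also a TTNNGNAA match on the other strand, so finding TTNNGNAA in the windows with the C/EBP core was fixed in advance. GAGGAA (23.3%), the first letters of GAGGAAG, was in the 4 primary genes, Ltf and Lcn2. AACNG, of the Myb type, was in all 9 windows and in 74.2% of promoters. TGTGGT, of the RUNX type, was in Ctsg (14%), and CCAAT was in Elane, Fcnb, Ltf and Ngp (33.8%). The spellings shown in capitals were picked after their matches were seen, and a match is a string of letters, not a bound site.

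Fcnb was the member that fell in Bak/Bax DKO with all 12 arrays. Its probe ILMN_2663083 (chromosome 2, 27932158 to 27932207 in the files, for which the sources used here name no build) read 6.71, 7.30 and 7.24 on the Bak/Bax DKO arrays and 8.74, 9.28 and 9.36 on the WT experiment 2 arrays. The second probe, ILMN_2624630 (27933799 to 27933848), read 6.59, 7.66 and 6.98 in Bak/Bax DKO and 8.67, 9.07 and 9.19 in WT experiment 2. Every knockout array was below every wild-type array for both probes, the second knockout array included. The group means of ILMN_2663083 were 7.08 ± 0.33 in Bak/Bax DKO and 9.13 ± 0.34 in WT experiment 2 (SD, n = 3 each), and the probe fell by 2.04 (SE 0.23, limma adjusted p = 0.00115), or 4.12-fold. ILMN_2624630 fell by 1.90 (SE 0.31, limma adjusted p = 0.0122), or 3.74-fold. Before normalization the bead intensity of ILMN_2663083 was 181.0, 157.9 and 235.9 in Bak/Bax DKO and 637.1, 674.6 and 580.0 in WT experiment 2. A fit to only the 6 arrays of the comparison left the difference as it was but ended both calls (limma adjusted p = 0.0613 and 0.124). Leaving out WT experiment 2 replicate 2 or 3 also ended the call of ILMN_2624630.

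These 2 were the probes called among 18 in Bak/Bax DKO with 12 arrays, both lower and both of 1 gene, where 0.392% of all tested probes were called lower. Without Bak/Bax DKO replicate 2 there were 8 called lower, of 5 genes, against 1.2% of all probes: both of Fcnb, 3 of Cebpe and those of Camp, Ngp and Lcn2. With 12 arrays 9 of 18 had an unadjusted p under 0.05 (14.9% of all probes). Calls aside, 7 of 18 probes had knockout arrays entirely below their wild-type arrays with 12 arrays (5.54% of all probes), and 12 of 18 with 11 arrays (14.4%). The median difference over the 18 was -1.02 with 12 arrays and -0.83 with 11, where the median of all tested probes was 0.08 and -0.0064. In a bulk sample, fewer cells of a type and less RNA per cell cannot be told apart.

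**Figure D1:**
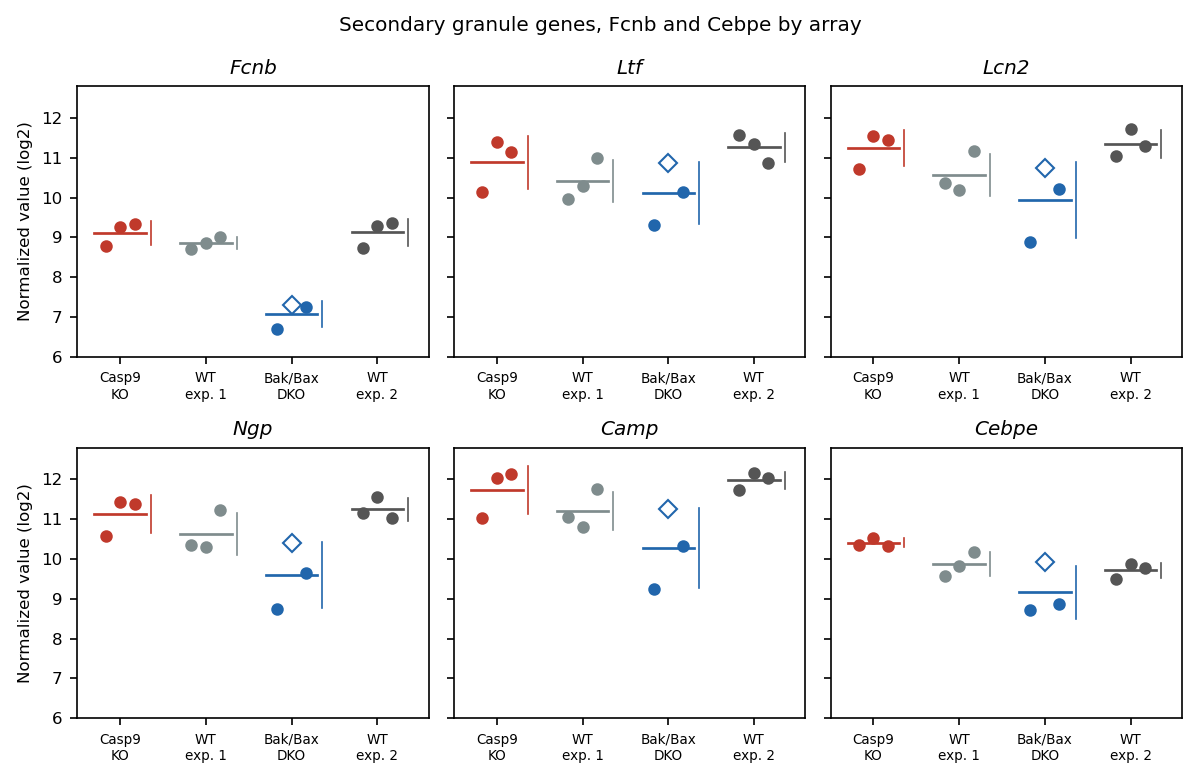
Normalized log2 value (y axis) of 1 probe per gene on each array, by group (x axis), for Fcnb (ILMN_2663083), Ltf (ILMN_2754364), Lcn2, Ngp, Camp and Cebpe (ILMN_3029849). Filled points are arrays, the open diamond is Bak/Bax DKO replicate 2, horizontal lines are group means and vertical lines 1 SD over 3 arrays. Fcnb is below WT experiment 2 on all 3 Bak/Bax DKO arrays, while the open diamond is the highest Bak/Bax DKO point in every panel.

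The secondary granule genes averaged lower in Bak/Bax DKO, did not pass the test with 12 arrays, and passed it without replicate 2 for Camp, Ngp and Lcn2. Camp (ILMN_2766604, chromosome 9, 109750027 to 109750076) read 9.24, 11.27 and 10.33 in Bak/Bax DKO and 11.72, 12.16 and 12.03 in WT experiment 2. Ngp (ILMN_1228832, chromosome 9, 110324213 to 110324262) read 8.75, 10.41 and 9.66 in Bak/Bax DKO and 11.15, 11.57 and 11.02 in WT experiment 2. Neither gene's groups overlapped, and replicate 2 was the knockout array nearest to the wild type in both. With 12 arrays Camp differed by -1.69 (SE 0.47, limma adjusted p = 0.114) and Ngp by -1.64 (SE 0.41, adjusted p = 0.0794), so neither was called. With 11 arrays Camp fell by 2.19 (SE 0.38, limma adjusted p = 0.00699), or 4.55-fold, and Ngp by 2.04 (SE 0.34, adjusted p = 0.00622), or 4.12-fold.

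Lcn2 (ILMN_2712075, chromosome 2, 32241264 to 32241313) read 8.88, 10.75 and 10.20 in Bak/Bax DKO and 11.03, 11.72 and 11.29 in WT experiment 2. These groups did not overlap either. The difference was -1.41 with 12 arrays (SE 0.45, limma adjusted p = 0.167), and with 11 arrays Lcn2 fell by 1.81 (SE 0.39, limma adjusted p = 0.0258), or 3.50-fold.

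Ltf was not called in either fit. Its brighter probe (ILMN_2754364, chromosome 9, 110944753 to 110944802) read 9.32, 10.87 and 10.14 in Bak/Bax DKO and 11.57, 11.36 and 10.86 in WT experiment 2. Replicate 2 of the knockout lay just above the lowest wild-type array, so the groups overlapped by that pair. The difference was -1.15 (SE 0.44, limma adjusted p = 0.246) with 12 arrays and -1.53 (SE 0.39, adjusted p = 0.0557) with 11. The dimmer probe (ILMN_2889020) was above background on 1 of 3 Bak/Bax DKO arrays and 3 of 3 WT experiment 2 arrays, and differed by -0.88 and -1.18 (limma adjusted p = 0.291 and 0.0860).

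The intensities of Camp and Ngp before normalization placed replicate 2 between the other knockout arrays. Camp intensity was 675.1, 1218.2 and 1400.8 in Bak/Bax DKO and 4142.1, 4868.3 and 3439.5 in WT experiment 2. Ngp intensity was 501.4, 703.5 and 916.7 in Bak/Bax DKO and 2870.6, 3160.0 and 1722.8 in WT experiment 2. On this scale all 3 knockout arrays were below all wild-type arrays, and replicate 3, not replicate 2, was the highest of the knockout arrays. This scale makes no allowance for the brightness of each array. Mean bead intensity was 366.7, 234.5 and 386.4 on the Bak/Bax DKO arrays and 459.9, 390.0 and 321.5 on the WT experiment 2 arrays. The part of normalization in the position of replicate 2 was not tested.

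Cebpe had 4 probes, and each averaged lower in Bak/Bax DKO than in WT experiment 2. ILMN_3029849 (chromosome 14, 55329415 to 55329464) read 8.71, 9.92 and 8.86 in Bak/Bax DKO and 9.51, 9.88 and 9.77 in WT experiment 2. Replicate 2 stood above every wild-type array and the other knockout arrays below them. With 12 arrays the 4 probes differed by -0.39 to -0.66 (limma adjusted p = 0.221 to 0.443) and none was called. With 11 arrays ILMN_1220301 fell by 0.72, ILMN_3029849 by 0.94 and ILMN_3103062 by 0.94 (limma adjusted p = 0.0198, 0.0140 and 0.00988), and ILMN_2528453 differed by -0.51 (adjusted p = 0.232). At most 1.92-fold, these changes were smaller in size than those of Fcnb and Camp, a difference between genes that was not tested.

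Primary granule genes showed no call in Bak/Bax DKO. On the 11 arrays the 7 probes of Mpo, Elane, Prtn3 and Ctsg read between 13.19 and 14.04. Without replicate 2 their differences ran from -0.24 (Mpo ILMN_2925094, 95% interval -0.50 to 0.03) to 0.26 (Elane, -0.02 to 0.54), none called (limma adjusted p = 0.363 to 0.971), and 2 probes were higher and 1 lower with no overlap between groups (15% and 14.4% of all probes). Prtn3 (ILMN_2758029) read 13.76, 13.76 and 13.63 in Bak/Bax DKO and 13.54, 13.73 and 13.68 in WT experiment 2, a difference of 0.07 with 12 arrays (95% interval -0.18 to 0.31). Ctsg (ILMN_1220236) read 13.77, 13.70 and 13.50 in Bak/Bax DKO and 13.61, 13.67 and 13.58 in WT experiment 2, a difference of 0.04 (95% interval -0.22 to 0.30). For both genes the groups overlapped.

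These 7 probes sat near the top of the array's range. On the 11 arrays each ranked between 2 and 243 among the 45281 probes, at 53.0% to 95.3% of the intensity of the brightest probe, and within 0.89 log2 units of the highest normalized value. No other member probe passed 31.2% of the brightest. The files used here hold no saturation flag, and whether changes in these transcripts were compressed was not tested.

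On Bak/Bax DKO replicate 2, 3 of the 18 member probes were lost. Mpo ILMN_1249030 read 13.56, 4.36 and 13.66 in Bak/Bax DKO and 13.52, 13.54 and 13.56 in WT experiment 2. Elane ILMN_1221700 read 14.04, 4.24 and 13.89 in Bak/Bax DKO and 13.54, 13.85 and 13.71 in WT experiment 2. The intensities on that array were 84.2 and 66.5, against 10527.5 or more for both probes on the other knockout arrays. Mpo ILMN_2600421 behaved alike, at 58.4. The other 2 Mpo probes, ILMN_2719256 and ILMN_2925094, read 13.52 and 13.62 on the same array, so probes of 1 transcript disagreed there. With 12 arrays the 3 lost probes had differences of -3.01 to -2.98 with SE of 1.89 to 1.98 (limma adjusted p = 0.444 to 0.462), and these values rest on that array alone.

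**Figure D2:**
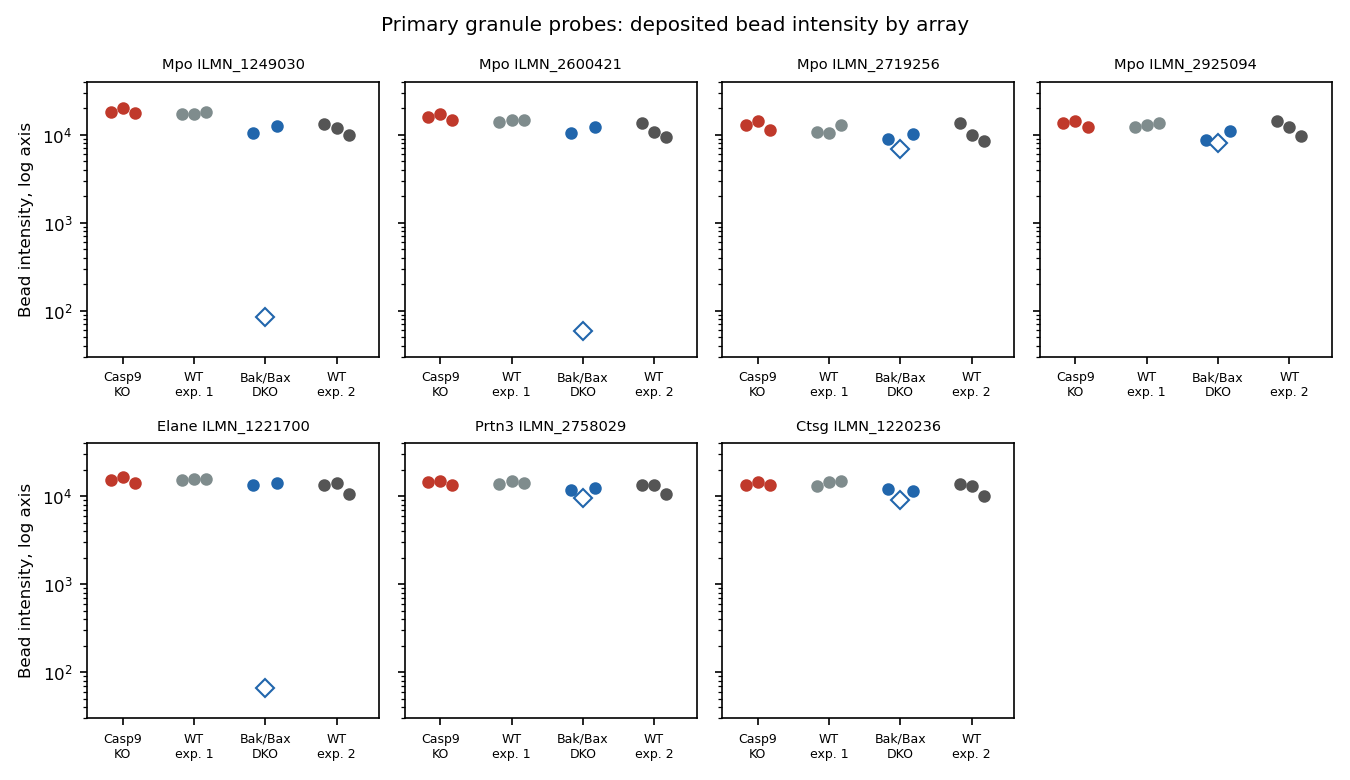
Deposited bead intensity (y axis, log scale) of the 7 primary granule probes on each array, by group (x axis). Filled points are arrays and the open diamond is Bak/Bax DKO replicate 2, which reads 84.2 and 58.4 for 2 Mpo probes and 66.5 for Elane and 6766.9 to 9561.8 for the other 4 probes.

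In Casp9 KO no member was called with 12 arrays (0 of 18, against 1.14% of all probes called by limma), and 2 of 18, both of Cebpe, had an unadjusted p under 0.05 (10.1% of all). Camp read 11.03, 12.04 and 12.13 in Casp9 KO and 11.05, 10.81 and 11.75 in WT experiment 1. Lcn2 read 10.72, 11.55 and 11.45 in Casp9 KO and 10.35, 10.19 and 11.17 in WT experiment 1. In both genes 2 of 3 knockout arrays were above all wild-type arrays and the groups overlapped through Casp9 KO replicate 1. The 5 secondary granule probes differed by 0.48 to 0.67 (SE 0.37 to 0.47, limma adjusted p = 0.639 to 0.893), with 95% intervals that reach from -0.50 to 1.66 over the 5.

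Fcnb in Casp9 KO read 8.78, 9.26 and 9.33 against 8.70, 8.86 and 9.01 in WT experiment 1 (ILMN_2663083), a difference of 0.26 (95% interval -0.24 to 0.76, limma adjusted p = 0.871). The primary granule probes differed by -0.03 to 0.16. For Prtn3 and Ctsg the differences were 0.00071 and -0.03 (95% intervals -0.25 to 0.25 and -0.29 to 0.23). The 3 probes lost in the other experiment have wide intervals here, since all groups share 1 estimate of spread per probe. Without Bak/Bax DKO replicate 2 the SE of Elane was 0.12, against 1.98 with it, and its difference was -0.02 in both.

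Cebpe was the member nearest to a call in Casp9 KO. ILMN_1220301 (chromosome 14, 55329282 to 55329331) read 10.36, 10.25 and 10.46 in Casp9 KO and 9.65, 9.86 and 9.90 in WT experiment 1. ILMN_3029849 read 10.36, 10.53 and 10.33 in Casp9 KO and 9.58, 9.83 and 10.18 in WT experiment 1. Neither probe had overlapping groups. With a pair of Mpo probes they made 4 of 18 whose knockout arrays were all higher (10.4% of all probes). ILMN_1220301 was higher by 0.55 with 12 arrays (SE 0.24, limma adjusted p = 0.477) and was the 1 probe called with 11 (SE 0.13, adjusted p = 0.0364), where 2.48% of all probes were called higher. A fit to only the 6 arrays of the comparison also called it (limma adjusted p = 0.0490). The other Cebpe probes differed by 0.35 to 0.54 and were not called with 11 arrays (limma adjusted p = 0.0877 to 0.275). With 12 arrays the smallest adjusted p of the gene was that of ILMN_2528453, whose groups overlapped (0.47, SE 0.19, limma adjusted p = 0.418). Overlap aside, 16 of 18 member probes were above 0 in Casp9 KO, with a median of 0.31 against -0.03 over all tested probes.

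**Figure D3:**
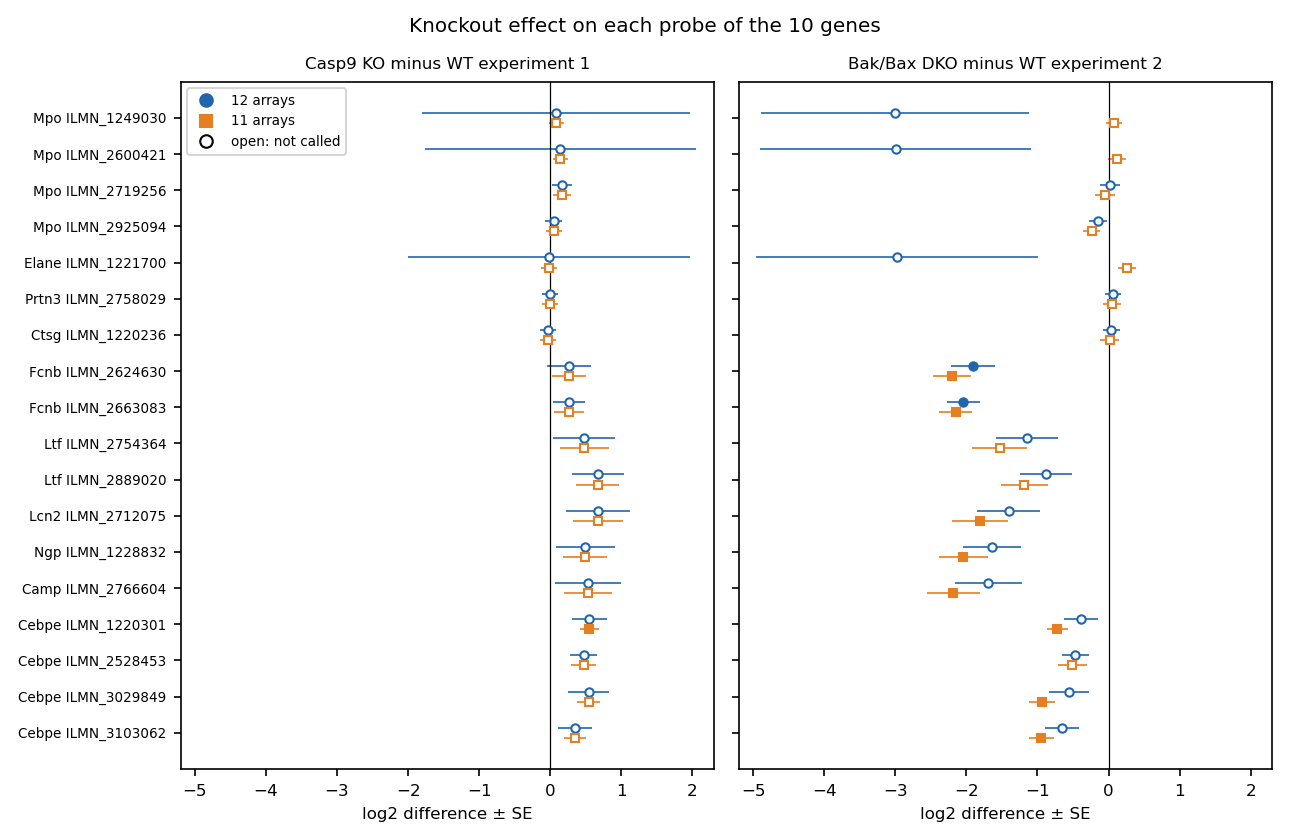
Log2 difference (x axis) with 1 SE for each of the 18 probes (rows), Casp9 KO minus WT experiment 1 on the left and Bak/Bax DKO minus WT experiment 2 on the right. Circles are fits to 12 arrays, squares fits to the 11 arrays without Bak/Bax DKO replicate 2, and filled symbols are called (adjusted p under 0.05). Called symbols are those of Fcnb in both fits for Bak/Bax DKO, with Lcn2, Ngp, Camp and 3 Cebpe probes added on 11 arrays, and 1 Cebpe probe on 11 arrays for Casp9 KO.

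The effects of the knockouts on Fcnb differed from each other with 12 arrays, and for 1 of its probes in every alternative run. The difference of effects (Casp9 KO effect minus Bak/Bax DKO effect, which share no arrays) was 2.31 for ILMN_2663083 (SE 0.32, limma adjusted p = 0.00597) and 2.17 for ILMN_2624630 (SE 0.44, adjusted p = 0.0421). The call of ILMN_2663083 held in 21 of 21 alternatives run and that of ILMN_2624630 in 9 of 20 (limma adjusted p up to 0.120), since leaving out any array other than Bak/Bax DKO replicate 2 or WT experiment 1 replicate 3 ended it. These were the 2 called of 18 probes, where 0.631% of all probes were called in this direction. With 11 arrays 10 of 18 were called against 3.03%: all 5 secondary granule probes (1.85 to 2.72, limma adjusted p = 0.00754 to 0.0438), both of Fcnb (2.41 and 2.46) and 3 of 4 of Cebpe (1.27 to 1.48). The 7 primary granule probes were not called with 11 arrays and differed by -0.28 to 0.29.

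Between the wild types, WT experiment 2 minus WT experiment 1, no member was called with 12 arrays (0 of 18, against 8.35% of probes by limma, and 0 of 18 at an unadjusted p under 0.05, against 22.5%). The 5 secondary granule probes averaged higher in WT experiment 2 by 0.42 to 0.85 and the 4 Cebpe probes differed by -0.38 to -0.15. Experiment and beadchip cannot be told apart in these values. With 11 arrays 1 probe was called, Mpo ILMN_1249030, at -0.35 (SE 0.10, limma adjusted p = 0.0338), where 9.41% of probes were called lower.

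By group, Camp averaged 11.73 ± 0.61 in Casp9 KO, 11.20 ± 0.49 in WT experiment 1, 10.28 ± 1.01 in Bak/Bax DKO and 11.97 ± 0.22 in WT experiment 2 (SD, n = 3 each). From the lowest, Bak/Bax DKO was followed by WT experiment 1, Casp9 KO and WT experiment 2, and Lcn2, Ngp and Ltf ILMN_2754364 ran in the same order. Gaps between neighbours in this order were smaller than the wider group's SD for these 4 probes, with these exceptions: Ngp between Bak/Bax DKO (9.60 ± 0.83) and WT experiment 1 (10.63 ± 0.52), and Lcn2 between Casp9 KO (11.24 ± 0.45) and WT experiment 1 (10.57 ± 0.52). The order sets groups of different beadchips beside each other. Cebpe had another order, with Bak/Bax DKO lowest (9.16 ± 0.66 for ILMN_3029849), then WT experiment 2 (9.72 ± 0.19), WT experiment 1 (9.87 ± 0.30) and Casp9 KO (10.41 ± 0.11), where the last gap alone was wider than the SD of the wider group.

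The secondary granule probes varied together from array to array. Over 11 arrays the 10 pairs among their 5 probes had Pearson correlations of 0.872 to 0.987 (median 0.904), and 0.692 to 0.963 (median 0.827) after the group means were taken out. The pairs share RNA sample, array and normalization, so these are descriptions. The 21 pairs of primary granule probes ran from -0.826 to 0.859 (median -0.218). Correlation with the mean of the z-scored secondary probes was 0.899 and 0.888 for the Fcnb probes and 0.599 to 0.773 for those of Cebpe. It was 0.856 for 1 Mpo probe (ILMN_2925094) and between -0.652 and 0.413 for the other 6 primary granule probes.

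Outside the set, the 5 probes most like the secondary granule mean over 11 arrays were of Chil3 (0.976), a chitinase-like protein, Chil1 (0.967), Cd177 (0.963 and 0.955), a neutrophil surface protein, and Chil4 (0.952). Chil3 and Chil4 are near-identical copies and their probes can share transcripts. In Bak/Bax DKO these Chil3 and Chil4 probes fell by 1.99 and 2.04 with 11 arrays (limma adjusted p = 0.00351 and 0.00726), and with 12 they differed by -1.58 and -1.63 (adjusted p = 0.0760 and 0.0870). The 5 probes most like the primary granule mean were of Trps1 (0.915), Auts2 (0.914), the transcript AK082138 (0.903), Psme3ip1 (0.901) and Nthl1 (0.900), and none of them was called in Bak/Bax DKO.

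Other granule and neutrophil genes were read from lists, each gene by its probe with the highest mean, beside 11772 genes of which 0.433% were called lower and 1.53% higher in Bak/Bax DKO with 12 arrays (1.39% and 1.86% with 11). Of 11 further secondary granule genes measured, all 11 were below 0 in Bak/Bax DKO with a median of -0.57, against 0.11 over all genes, and 1 fell: Itgb2l, an integrin beta chain of neutrophils, by 1.19 (SE 0.26, limma adjusted p = 0.0465). With 11 arrays 5 of the 11 fell and the median was -0.87. Chil3 was at -1.27 with 12 arrays (adjusted p = 0.181) and fell by 1.69 with 11 (adjusted p = 0.0191), and Cd177 was not called in either (adjusted p = 0.272 and 0.0840).

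Of 11 further genes listed under primary granules, Nkg7, a granule membrane protein, fell by 1.45 in Bak/Bax DKO with 12 arrays (SE 0.28, limma adjusted p = 0.0273) and by 1.83 with 11. Which granules hold Nkg7 in these cells was not tested. Prss57, a serine protease of primary granules, was added with 11 arrays (fell by 0.86, limma adjusted p = 0.0178). The median of the list was -0.12 with 12 arrays and -0.20 with 11. Of 6 tertiary granule and secretory vesicle genes, 0 were called by limma in either fit. With 12 arrays 0 had an unadjusted p under 0.05, against 14.9% of all tested probes. In both fits 4 of the 6 were above 0 and 2 below (median 0.18 with 12 arrays and 0.19 with 11). With 12 arrays Slc11a1, a metal transporter, was the lowest at -0.45 and Fpr2 the highest at 0.74. Mmp8 and Cybb, of the secondary list, and Itgam, of the tertiary, were not above background on any array.

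Among 12 measured genes of the neutrophil cytosol and surface, Wfdc21 fell by 1.18 in Bak/Bax DKO (SE 0.25, limma adjusted p = 0.0423), and 5 fell with 11 arrays. In both fits 3 of the 12 were above 0 and 9 below (median -0.48 with 12 arrays and -0.64 with 11). S100a9, a calcium-binding protein abundant in neutrophils, was at -1.26 with 12 arrays (adjusted p = 0.0936) and fell by 1.46 with 11 (adjusted p = 0.0295). Clec5a, a myeloid lectin receptor, was at -0.80 (adjusted p = 0.0760) and fell by 1.00 with 11 (adjusted p = 0.00678). Of 13 transcription factors of granulocyte development, 0 were called by limma in either fit. With 12 arrays 6 were above 0 and 7 below (median -0.04), and 2 of 13 had an unadjusted p under 0.05 (14.9% of all tested probes). These 2 lay on opposite sides: Irf8, which favours monocytes over granulocytes, at -0.66 and Hoxa9 at 0.45 (limma adjusted p = 0.136 and 0.309).

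In Casp9 KO 1.00% of the 11772 genes were called higher and 0.289% lower with 12 arrays (2.70% and 2.12% with 11). All 11 further primary and all 11 further secondary granule genes were above 0, with medians of 0.42 and 0.55 against -0.03 over all genes. With 12 arrays none was called by limma, and 2 of each list had an unadjusted p under 0.05 (10.1% of all tested probes). With 11 arrays Ctsc, which activates the granule serine proteases, rose by 0.64 (limma adjusted p = 0.0378), and of the secondary list Anxa1 rose by 0.80 and Hp by 0.59 (adjusted p = 0.0364 and 0.0447). Of the cytosol and surface list 2 of 12 rose with 12 arrays, Clec5a by 1.02 (SE 0.20, adjusted p = 0.0348) and Cxcr2, a chemokine receptor that was not well above background on any WT experiment 1 array, at least 1.36-fold (adjusted p = 0.0345). Its measured means were 5.42 in Casp9 KO and 4.61 in WT experiment 1. The bound sets the Casp9 KO mean against the higher of the probe's own value and the lowest value above background on each control array. Of 6 tertiary granule and secretory vesicle genes 5 were above 0 and 1 below (median 0.47). Of 13 transcription factors of granulocyte development 9 were above 0 and 4 below (median 0.17). No gene of these 2 lists was called by limma with 12 arrays. With 11 arrays 1 was called, Cebpb, which rose by 0.78 (limma adjusted p = 0.0421).

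**Figure D4:**
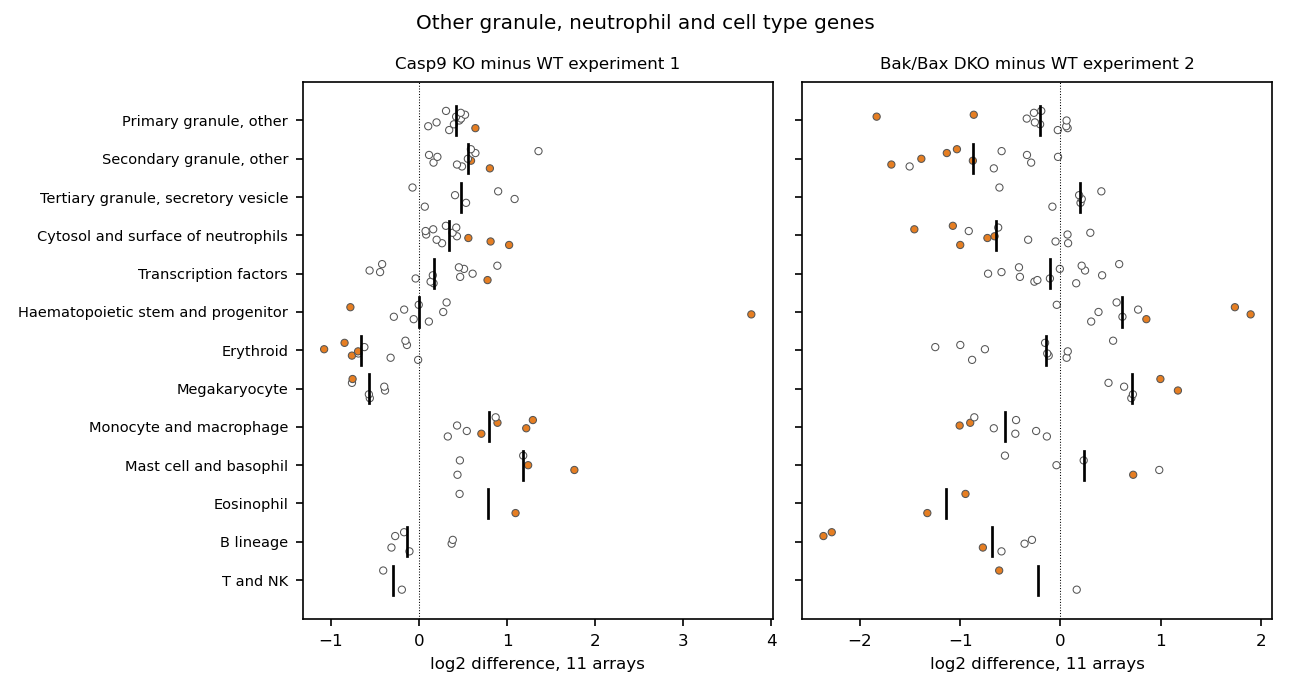
Log2 difference with 11 arrays (x axis) of each measured gene in 13 lists (rows), Casp9 KO minus WT experiment 1 on the left and Bak/Bax DKO minus WT experiment 2 on the right. Each point is a gene, filled where its adjusted p was under 0.05, and black bars are list medians. Further primary and secondary granule genes lie above 0 on the left, and the secondary list has its median at -0.87 on the right.

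Markers of other cell types moved in the same comparisons, and their part in the granule results was not tested. The summed linear values of 9 stem and progenitor markers were 13580 to 19660 in Bak/Bax DKO (13580 to 15720 without replicate 2) and 7882 to 9395 in WT experiment 2, with no overlap. Of these 9, 4 rose with 12 arrays, among them Gata2 by 0.98, Ly6a by 2.34 (limma adjusted p = 0.00824 and 0.0146) and Meis1, at the threshold. The sum of 8 monocyte and macrophage markers was 3290 to 5068 in Bak/Bax DKO (3290 to 3856 without replicate 2) and 5818 to 6739 in WT experiment 2, and Ly86 fell by 1.11 (adjusted p = 0.0170). With 12 arrays 2 of these 8 were above 0 and 6 below (median -0.44).

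The sum of 6 B lineage markers was 613.4 to 925.7 in Bak/Bax DKO and 1053 to 1508 in WT experiment 2, and 3 fell, among them the surrogate light chain gene Vpreb1, which fell by 2.11, and its partner Igll1, which fell by 2.07 (limma adjusted p = 0.00314 and 0.00582). The sum of 6 megakaryocyte markers was 1339 to 3831 in Bak/Bax DKO (3024 to 3831 without replicate 2) and 1448 to 2519 in WT experiment 2, and Vwf rose by 1.10 (adjusted p = 0.0269). The sum of 2 measured eosinophil markers was 259.7 to 6036 in Bak/Bax DKO (4166 to 6036 without replicate 2) and 9419 to 9948 in WT experiment 2, with 0 called with 12 arrays (2 had an unadjusted p under 0.05) and both lower with 11. Mast cell and basophil markers summed to 4826 to 7608 in Bak/Bax DKO and 2896 to 3794 in WT experiment 2, with Cpa3 risen by 0.90 (adjusted p = 0.0370) as 1 of 5. The sum of 10 erythroid markers was 32650 to 37520 in Bak/Bax DKO and 39000 to 49940 in WT experiment 2, and 0 of 10 were called by limma in either fit. With 12 arrays 4 of the 10 were above 0 and 6 below (median -0.21). The 2 with an unadjusted p under 0.05 (14.9% of all tested probes) lay on opposite sides: Tfrc, the transferrin receptor, at 0.63 and Alas2, a heme synthesis enzyme, at -0.76 (adjusted p = 0.0765 and 0.256). The 2 measured T and NK markers summed to 44.5 to 64.24 in Bak/Bax DKO and 72.96 to 86.5 in WT experiment 2, with Il7r lower with 11 arrays. These sums lie near background. Il7r was above it on 2 of 3 Bak/Bax DKO arrays, and Cd4 on 1 of 3 in each of these groups. Cd4 did not go the same way, at 0.07 with 12 arrays.

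In Casp9 KO the monocyte and macrophage sum was 5440 to 8116 and in WT experiment 1 it was 3972 to 4573, with Mpeg1 risen by 1.29 (limma adjusted p = 0.0474) and 8 of 8 markers above 0. The mast cell and basophil sum was 3254 to 5047 in Casp9 KO and 2471 to 2605 in WT experiment 1, with Mcpt8 and Fcer1a risen by 1.24 and 1.76 (adjusted p = 0.00734 and 0.0457). The eosinophil sum was 10810 to 13400 in Casp9 KO and 7798 to 10080 in WT experiment 1. Stem and progenitor markers summed to 9747 to 13320 in Casp9 KO and 8747 to 9543 in WT experiment 1, but did not move as a list. Of the 9 measured, 4 were above 0 and 5 below (median -0.0028). Ly6a rose by 3.77 (adjusted p = 0.000563), from a mean of 8.20 in WT experiment 1 to 11.97 in Casp9 KO, while Kit was at -0.29 (adjusted p = 0.645). The erythroid sum was 22330 to 30280 in Casp9 KO and 35640 to 40110 in WT experiment 1, with 10 of 10 markers below 0. With 12 arrays 0 of the 10 were called by limma and 5 had an unadjusted p under 0.05 (10.1% of all tested probes), and 4 fell with 11 arrays. The megakaryocyte sum was 1815 to 2107 in Casp9 KO and 2525 to 2702 in WT experiment 1. B lineage sums overlapped, at 1035 to 1147 in Casp9 KO and 913.3 to 1147 in WT experiment 1, and those of T and NK markers were 56.2 to 67.14 in Casp9 KO and 72.02 to 79.98 in WT experiment 1. The T and NK sums lie near background, with Cd4 above it on 0 of 3 Casp9 KO arrays and 1 of 3 WT experiment 1 arrays. Defining markers of mature T and B cells were at background: Cd3e and Ms4a1 were above it on 0 of 12 arrays. Ly6g, a marker of mature neutrophils, had no probe by that name on the array.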

How the data were processed

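Total RNA (up to 250 ng per sample) was labelled for the Illumina Mouse WG6V2 BeadChip. The authors deposited a bead intensity per probe and array, on a linear scale, with a detection score headed as a p-value. The deposited score rises with intensity, so it was read as 1 minus the detection p. They also deposited normalized log2 values, which were used here. The submitters' processing notes name GenomeStudio and limma without versions. The steps behind the log2 values are not stated, but neqc with an offset of 16 gave values within 0.0197 of them. The sources used here name no genome build for the probe positions.

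Probes with detection p under 0.05 on at least 3 of 12 arrays (18867 of 45281) were fitted with limma 3.58.1 in R 4.3.3 as 4 group means (8 residual degrees of freedom), with eBayes, two-sided tests and Benjamini-Hochberg adjustment. The number of arrays limits the precision. The genes, gene lists and tests were chosen with earlier results of these data known. The text names every member with all probes, up to 3 genes per list with the smallest p, the 5 probes most correlated with each granule score, and the targeted genes; a marker gene that the rule also names is not reported here. Symbols of 38837 probes were updated through the Entrez ID. Sums of marker lists are of 2 to the power of the log2 values. Tested on simulated data with 200 changed of 18867 probes, the fit recovered 43% of changes of size 1 and 92% of size 2 for Bak/Bax DKO, 49% and 91% for Casp9 KO, and 13% and 74% for the difference of the effects, with 1.46%, 4.11% and 3.33% false calls. The simulation drew normal values with the same spread per probe on every array. It held no array that lost bright probes, as Bak/Bax DKO replicate 2 did, so these rates may not hold for the real arrays. Alternatives covered background correction, normalization, the filter, probes per gene, array weights, arrays left out and the replicate number as a block. Promoters were searched in Python 3.11.15.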

Additional observations from a re-analysis of the deposited data

Results flagged for a closer look

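The effects of the knockouts on Fcnb differed by the test of the difference itself with 12 arrays, a call that held in 21 of 21 alternatives for ILMN_2663083 and in 9 of 20 for ILMN_2624630 (limma adjusted p up to 0.0266 and 0.120). The Casp9 KO effect minus the Bak/Bax DKO effect was 2.31 for ILMN_2663083 and 2.17 for ILMN_2624630 on the log2 scale (limma adjusted p = 0.00597 and 0.0421). Fcnb was 0.26 higher in Casp9 KO for both probes, which was not called, and fell by 2.04 and 1.90 in Bak/Bax DKO. All 3 Bak/Bax DKO arrays were below all 3 WT experiment 2 arrays for both probes, while the Casp9 KO and WT experiment 1 arrays overlapped. Each experiment lay on its own beadchip with its own wild type.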

How the results depend on the processing

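The number of member probes called depended mainly on Bak/Bax DKO replicate 2. In Bak/Bax DKO it was 2 with 12 arrays, 8 with 11 arrays normalized again and with array weights, 1 with 1 probe per gene (Fcnb), and 0 with only the 6 arrays of the comparison, where 39 of all 18867 probes were called. With each array left out in turn it ranged from 1 (without WT experiment 2 replicate 2 or 3) to 8 (without Bak/Bax DKO replicate 2). For the difference of effects it was 2, then 10 with 11 arrays normalized again and with array weights, 1 with no filter and with 1 probe per gene, and 1 to 10 with each array left out, 10 without Bak/Bax DKO replicate 2, 2 without WT experiment 1 replicate 3 and 1 without any other array. In Casp9 KO it was 0, then 1 (Cebpe) with 11 arrays normalized again, with the 6 arrays and with array weights, and 0 to 1 with arrays left out. Between wild types it was 0, then 1 with 11 arrays normalized again, and 0 to 1 with arrays left out. The cause was not tested. ILMN_2663083 of Fcnb kept its call in Bak/Bax DKO in 21 of 22 alternatives and ILMN_2624630 in 18 of 21, with differences of -2.34 to -1.39 over both. For the difference of effects ILMN_2663083 kept its call in 21 of 21 and ILMN_2624630 in 9 of 20. No called value changed sign, and the signs of the 5 secondary granule probes held in every comparison and alternative run, while uncalled primary granule differences changed sign 12 times in Bak/Bax DKO and 8 in Casp9 KO.

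With the replicate number as a block the counts were 0 in Casp9 KO, 2 in Bak/Bax DKO and 2 for the difference, and over all probes 131, 158 and 102 were called. The 6 same-numbered pairs correlated at -0.0752 to 0.204, with 2 over 0.1, so the numbers were not taken as pairs.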
